A study of Homo sapiens with 6 samples.

Results

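The proximal DLK1-DIO3 miRNAs are the mature products of the miRNA run that opens the imprinted locus at 14q32, from miR-493 to miR-370. The 10 members were picked by name, out of 2588 mature miRNAs counted in each library, and come from 8 hairpins. They are miR-493-5p, miR-493-3p, miR-337-3p, miR-431-5p, miR-433-3p, miR-127-3p, miR-432-5p, miR-136-5p, miR-136-3p and miR-370-3p. They were picked with their levels and ratios in these libraries already known, so those values are given as a description and no test was run on them.

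Small RNA was sequenced from A549, a lung carcinoma epithelial line, and BEAS-2B, an immortalised bronchial epithelial line, both labelled WT. The agent was TGF-β1, a cytokine that moves epithelial cells toward a mesenchymal state, given to each line for 48 h at 1 or 5 ng/mL or left out, and per the labels the treatment medium was RPMI1640 with less serum than the growth medium, antibiotics and sodium pyruvate. There was 1 library per group, so no value has a replicate error, and every 95% interval covers counting error only. Each line stands for its type by a single established culture.

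The DLK1-DIO3 region is imprinted: the coding genes DLK1, RTL1 and DIO3 are read from the paternal chromosome, and the non-coding RNAs MEG3 and MEG8 and the miRNAs from the maternal chromosome. The miRNAs lie in introns of long non-coding transcripts in the same orientation and are thought to be cut from shared precursors. The region is known for activity in embryo, placenta, brain and muscle and for low activity in most adult epithelia. Several of the proximal hairpins lie opposite the coding exon of RTL1, a gene needed for placental vessels, and their products are fully complementary to its transcript.

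The mature sequences are shown because they separate the members, which share a locus but not a seed. Bases 2 to 8, the seed that pairs with target transcripts, are in capitals.
hsa-miR-493-5p: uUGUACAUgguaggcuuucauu
hsa-miR-493-3p: uGAAGGUCuacugugugccagg
hsa-miR-337-3p: cUCCUAUAugaugccuuucuuc
hsa-miR-431-5p: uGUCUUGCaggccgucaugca
hsa-miR-433-3p: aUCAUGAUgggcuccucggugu
hsa-miR-127-3p: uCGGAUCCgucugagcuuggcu
hsa-miR-432-5p: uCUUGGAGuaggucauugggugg
hsa-miR-136-5p: aCUCCAUUuguuuugaugaugga
hsa-miR-136-3p: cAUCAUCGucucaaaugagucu
hsa-miR-370-3p: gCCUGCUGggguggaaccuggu

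The 10 members had 10 distinct seeds, and none of these was found in any other of the 2370 mature names of the RefSeq table (GRCh38.p14). When only bases 2 to 7 were compared, 3 members had a partner. The partners of miR-493-5p were passenger strands of let-7, shown here with bases 2 to 7 in capitals beside the miR-493-5p sequence above.
hsa-let-7a-2-3p: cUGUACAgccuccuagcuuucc
hsa-let-7c-3p: cUGUACAaccuucuagcuuucc
The let-7a-2-3p arm had from 2 to 14 counts in a library and let-7c-3p also from 2 to 13, far under the counts of miR-493-5p. The remaining partner, let-7g-3p, had at most 1 count. The partners of miR-337-3p (miR-202-5p) and miR-433-3p (miR-7154-5p) had 0 counts in every library. GC content of the members ran from 34.8% to 68.2%.

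All 10 sequences lie on the plus strand of chromosome 14 (GRCh38.p14). The arms of miR-493 are at chr14:100869075-100869096 (5p) and chr14:100869116-100869137 (3p), and miR-337-3p is at chr14:100874553-100874574. The next members stand close together, namely miR-431-5p at chr14:100881026-100881046, miR-433-3p at chr14:100881949-100881970, miR-127-3p at chr14:100883035-100883056, miR-432-5p at chr14:100884496-100884518, and miR-136-5p and miR-136-3p at chr14:100884716-100884738 and chr14:100884750-100884771. These 5 hairpins span 3777 bp and lie opposite a coding exon of RTL1, which is on the minus strand, and the reverse complement of all 6 of their members was found in the RTL1 transcript. The last member, miR-370-3p at chr14:100911186-100911207, lies 26355 bp further on, in an intron of MEG8. Every hairpin lies in an intron of the long non-coding RNA AL117190.1 in GENCODE 29, and the run covers 42154 bp. A gap of 110852 bp separates it from miR-379, the start of the distal run of the same locus.

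Totals ran from 633318 to 900424 counts per library, and miR-21-5p alone took from 35.4% to 57.2% of them, least in the BEAS-2B control. Counts were scaled with trimmed mean of M-values (TMM) factors, which were 1.32 for the BEAS-2B control and from 0.829 to 1.02 for the others. The normalised data value (ND) is log2 of the normalised count plus 1, and a log2 ratio is a difference between ND values. The study's thresholds, ND of at least 8 (a normalised count of 255) and a fold change of at least 1.4, were used for calls. The study does not say which library must reach the ND, and the higher of the libraries compared was taken here. When both had to reach it, the number of members called in A549 cells was 1 at each dose in place of 4. In these bulk libraries, fewer cells with a miRNA and less of it per cell cannot be told apart.

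As identity checks, 7 epithelial, 6 mesenchymal and 6 blood miRNAs were read in each library. The epithelial list summed to 247, 401 and 350 normalised counts in A549 cells at 0, 1 and 5 ng/mL, and to 363, 346 and 325 in BEAS-2B cells. Nearly all came from the miR-200 group and miR-203a-3p, while miR-205-5p had at most 2 counts in a library. In A549 cells miR-203a-3p ran against the sum, with 18, 15 and 4 counts. The mesenchymal list summed to 162, 1736 and 1345 normalised counts in A549 cells at 0, 1 and 5 ng/mL, and in BEAS-2B libraries they summed to 15, 73 and 111 counts, or 84.5 and 109 normalised after treatment. The difference was nearly all miR-143-3p, and miR-214-3p was at 0 in all 6 libraries. The miR-199 arms had at most 4 counts in a library. In BEAS-2B cells miR-199a-5p had 3, 1 and 0 counts, miR-199a-3p had 4, 2 and 3, and miR-199b-5p had 1, 3 and 2. The blood list summed to at most 9 counts, with miR-223-3p at 0 throughout. The mesenchymal sum was higher after treatment in both lines through miR-143-3p and miR-145-5p and not through the list as a whole. Its part in the result for the proximal members was not tested.

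**Figure D1:**
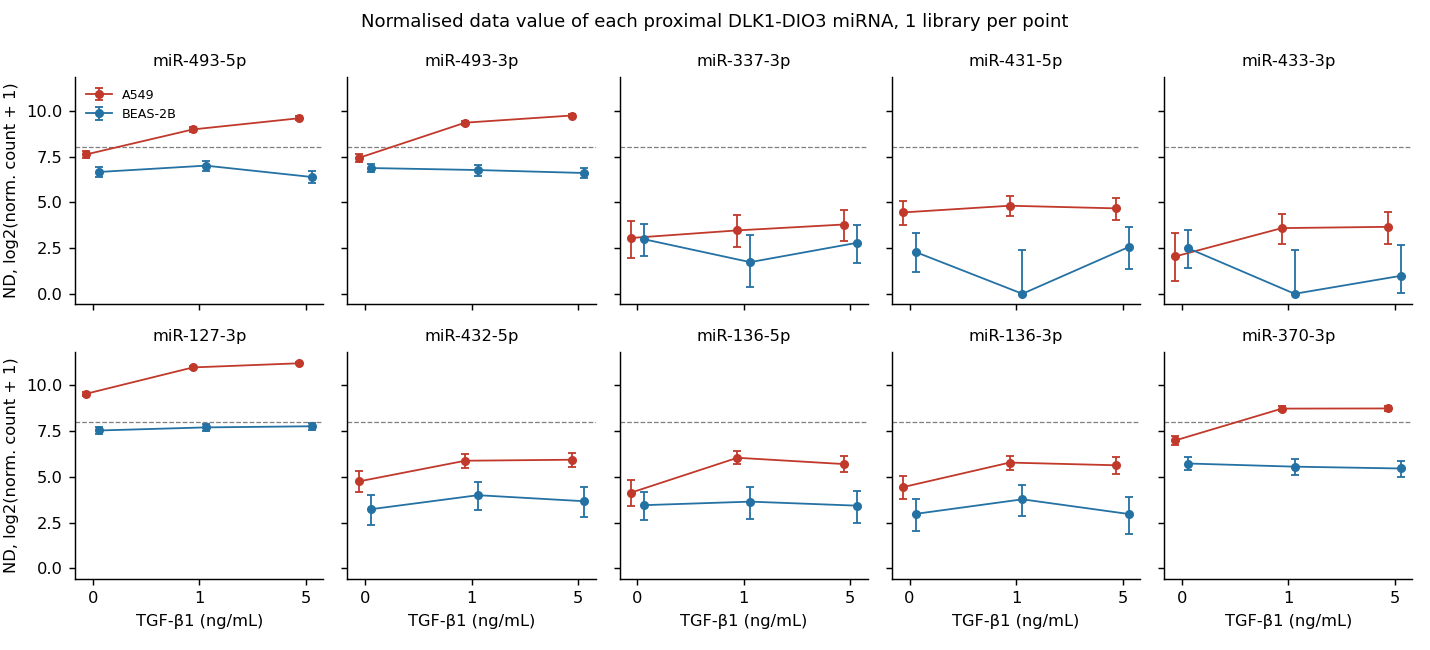
ND, the log2 of normalised count plus 1, of each proximal miRNA (vertical axis) at 0, 1 and 5 ng/mL TGF-β1 (horizontal axis) in A549 (red) and BEAS-2B (blue), with 1 library per point, exact Poisson 95% counting intervals as bars and the ND of 8 as a dashed line. In A549 cells 4 members lie above the dashed line after treatment, and in BEAS-2B cells none reaches it at any dose.

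The first comparison was between TGF-β1-treated and untreated A549 cells. The 10 members together had 1285, 3824 and 3988 counts at doses of 0, 1 and 5 ng/mL. Normalised, these sums were 1337, 3840 and 4641. The summed members were thus 2.87-fold higher at 1 ng/mL (log2 ratio 1.52, interval 1.43 to 1.61) and 3.47-fold higher at 5 ng/mL (1.79, interval 1.70 to 1.89). Leaving out miR-127-3p, the most abundant member, gave log2 ratios of 1.62 and 1.94. Their share of all counts other than miR-21-5p went from 0.347% in the control to 0.984% and 1.20%.

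miR-127-3p, a repressor of the transcription factor BCL6, was the most abundant member in every library. It had 720, 2022 and 2041 counts in A549 cells at 0, 1 and 5 ng/mL, or 749, 2030 and 2375 after normalisation. The treated libraries lay close to each other and well above the control. Its log2 ratio to the control was 1.44 at 1 ng/mL (interval 1.31 to 1.56) and 1.66 at 5 ng/mL (interval 1.54 to 1.79). By abundance it was miRNA number 62 in the control and number 30 at 5 ng/mL.

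miR-493, whose arms have been described as inhibitors of tumour cell spread, gave the greatest ratios among the members at 5 ng/mL. miR-493-3p had 164, 650 and 735 counts, or 171, 653 and 855 normalised, with log2 ratios of 1.93 (interval 1.69 to 2.19) at 1 ng/mL and 2.32 (interval 2.08 to 2.58) at 5 ng/mL. miR-493-5p had 188, 503 and 664 counts, or 196, 505 and 773 normalised, with log2 ratios of 1.36 (interval 1.12 to 1.62) and 1.98 (interval 1.75 to 2.22). Both arms were lowest in the control and highest at 5 ng/mL. At 1 ng/mL the intervals of the arms did not overlap.

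miR-370-3p, at the far end of the run, had 122, 424 and 368 counts in A549 cells, or 126.9, 426 and 428 normalised. This gave 1.74 on the log2 scale at 1 ng/mL (interval 1.45 to 2.05) and 1.75 at 5 ng/mL (interval 1.46 to 2.06). The treated libraries were level with each other at this depth.

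Among the scarcer products opposite RTL1, miR-136-5p had 16, 65 and 44 counts and miR-136-3p had 20, 54 and 42. Their log2 ratios at 5 ng/mL were 1.56 (interval 0.77 to 2.55) and 1.19 (interval 0.43 to 2.08). miR-432-5p had 25, 58 and 52 counts, and its log2 ratio at 5 ng/mL was 1.19 (interval 0.50 to 1.97). All 3 were higher in both treated libraries than in the control, with intervals above 0 at each dose. The ratios of such low counts are drawn toward 0 by the added count of 1.

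The other 3 members gave intervals that include no difference. miR-433-3p, described as a promoter of fibrosis signalling in the kidney, had 3, 11 and 10 counts (log2 ratio 1.62 at 5 ng/mL, interval -0.059 to 4.40). miR-337-3p had 7, 10 and 11 counts (0.74, interval -0.68 to 2.42). miR-431-5p, which acts on the muscle stem cell factor PAX7, had 20, 27 and 21 counts (0.22, interval -0.72 to 1.19). For miR-431-5p the upper bound lies under the values of both miR-493 arms, miR-127-3p, miR-136-5p and miR-370-3p, whereas the intervals of miR-337-3p and miR-433-3p span most of the members' values, so depth does not allow them to be placed.

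Over the members, 4 met the ND criterion at 5 ng/mL and all 4 were past the criteria, all higher, beside 27.0% called higher of all miRNAs meeting it. They were miR-493-5p, miR-493-3p, miR-127-3p and miR-370-3p. Of these, only miR-127-3p met the ND criterion in the control as well, so the other 3 qualified through a treated library in which they were high, and the count carries no more than that. At 1 ng/mL the same 4 were called higher, again beside 27.0%. Of the 9 members with a mean normalised count of at least 10 at 5 ng/mL, 7 had an interval above 0, beside 33.1% of 399 miRNAs, and of 8 at 1 ng/mL there were 7, beside 26.9% of 391. All 10 had a log2 ratio above 0 at each dose, beside 55.3% and 49.7% of miRNAs with a count. The median log2 ratio of the members was 1.59 at 5 ng/mL, where that of all miRNAs with a count was 0.08. At 1 ng/mL the members ran from 0.37 to 1.93 and the median of all miRNAs was -0.02. Both doses share the same control library.

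**Figure D2:**
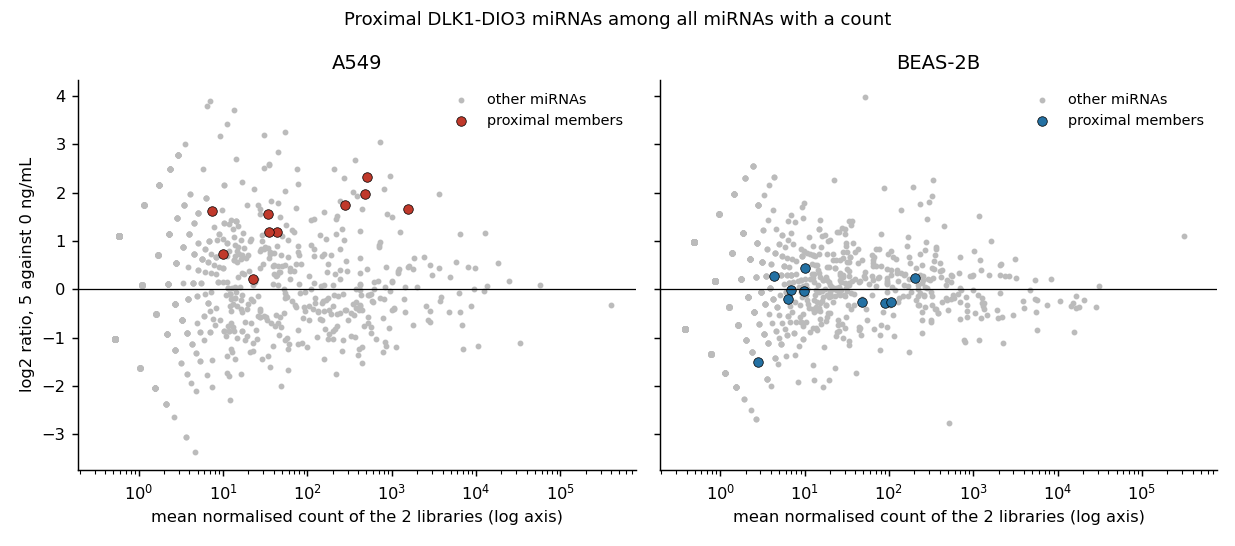
Log2 ratio of 5 against 0 ng/mL (vertical axis) against the mean normalised count of the libraries compared (horizontal log axis) for every miRNA with a count in A549 (left) and BEAS-2B (right), with the proximal members in colour. In A549 cells all 10 members lie above 0, while for BEAS-2B 3 lie above 0 and 7 below, beside 50.5% of all miRNAs with a count above 0.

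The second comparison was the same in BEAS-2B cells. The 10 members together had 643, 459 and 489 counts at 0, 1 and 5 ng/mL, which were 494.6, 531 and 479 after normalisation. The log2 ratio of the sum was 0.10 (interval -0.07 to 0.28) at 1 ng/mL and -0.04 (interval -0.22 to 0.13) at 5 ng/mL. The upper bounds lie under the A549 values. With total-count scaling the same sums gave -0.32 (interval -0.50 to -0.15) and -0.46 (interval -0.63 to -0.28). That scaling moved the median of miRNAs with a mean normalised count of at least 10 by -0.42 at 1 ng/mL and -0.41 at 5 ng/mL. With TMM this median was 0.05 and 0.08, and relative to it the sum stood at 0.05 and -0.12.

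By member, miR-127-3p had 241, 180 and 222 counts in BEAS-2B cells, or 185, 208 and 218 normalised (log2 ratio 0.23 at 5 ng/mL, interval -0.04 to 0.50). miR-493-5p had 130, 110 and 84 counts, which is an ND of 6.66 in the control and 127.4 and 82.4 normalised counts at 1 and 5 ng/mL (-0.28, interval -0.69 to 0.13). miR-493-3p had 151, 93 and 98 counts, or 116, 108 and 96.1 normalised (-0.27, interval -0.66 to 0.10). The raw counts of all 3 were highest in the control, and after TMM scaling that order no longer held for miR-127-3p and miR-493-5p. With total-count scaling all 3 stayed highest in the control. miR-370-3p had 68, 40 and 44 counts, or 52.3, 46.3 and 43.1 normalised (-0.27, interval -0.86 to 0.29). None of these intervals at 5 ng/mL excludes no difference, and none at 1 ng/mL does.

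The remaining 6 members had at most 13 counts in a BEAS-2B library. miR-432-5p had 11, 13 and 12 counts, miR-136-5p had 13, 10 and 10, and miR-136-3p had 9, 11 and 7. These were level within counting error. miR-337-3p had 9, 2 and 6 counts, miR-431-5p had 5, 0 and 5, and miR-433-3p had 6, 0 and 1. For the latter pair, whose count was 0 at 1 ng/mL, no fold is given, and the counting intervals of both include no difference from the control.

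No member met the ND criterion in a BEAS-2B library, so 0 were past the criteria at either dose, beside 36.0% called in either direction at 5 ng/mL and 29.2% at 1 ng/mL. Intervals above 0 were found in 0 of the 5 members with a mean normalised count of at least 10 at 5 ng/mL and 0 of 6 at 1 ng/mL, beside 27.3% and 22.5%, and those with an interval below 0 were also 0, beside 23.5% and 21.5%. The median log2 ratio of the 10 members was -0.11 at 5 ng/mL and 0.03 at 1 ng/mL, and that of all miRNAs with a count was 0.02 and -0.06. The number with an interval beyond 0 depended on the scaling, in both directions, as did the share over all miRNAs. With total-count scaling, 3 of these 5 members lay below 0 at 5 ng/mL (beside 40.6%) and 2 of 6 at 1 ng/mL (beside 42.2%). Unscaled counts put 3 of 5 and 3 of 6 below 0, beside 36.9% and 50.9%. DESeq2 size factors put 1 and 0 below, beside 27.5% and 26.0%. With total count without miR-21-5p, miR-127-3p lay above 0 at 5 ng/mL (beside 35.8%) and miR-493-5p at 1 ng/mL (beside 24.1%).

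**Figure D3:**
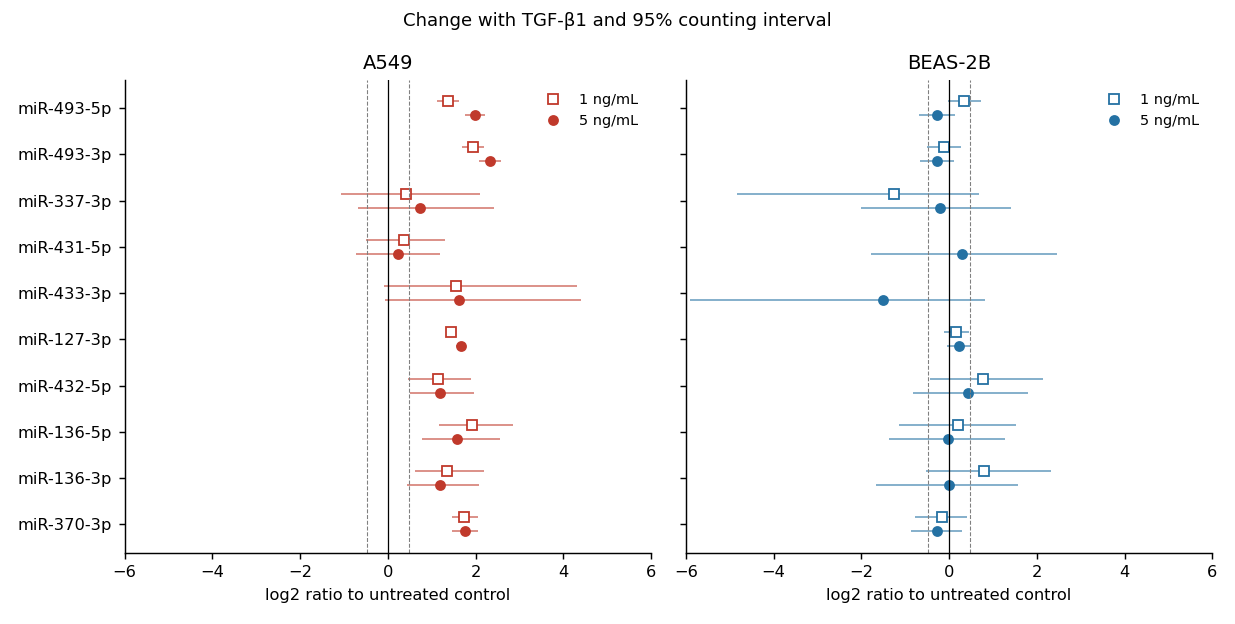
Log2 ratio to the untreated control (horizontal axis) of each proximal miRNA at 1 ng/mL (open squares) and 5 ng/mL (filled circles), with 95% counting intervals as lines and the 1.4-fold limits as dashed lines, for A549 (left) and BEAS-2B (right). miR-431-5p and miR-433-3p at 1 ng/mL in BEAS-2B are not drawn because their count was 0, and the interval of miR-433-3p at 5 ng/mL is cut at the axis limit. In A549 cells 7 intervals lie above 0 at each dose, and in BEAS-2B cells all drawn intervals include 0.

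The difference between the lines was measured directly, as the A549 log2 ratio minus the BEAS-2B log2 ratio, without the added count of 1 and with a counting interval. For the summed members it was 1.84 (interval 1.65 to 2.03) at 5 ng/mL and 1.42 (interval 1.22 to 1.61) at 1 ng/mL. At 5 ng/mL it was 2.60 (interval 2.16 to 3.04) for miR-493-3p and 2.26 (interval 1.80 to 2.72) for miR-493-5p. It was 2.03 (interval 1.41 to 2.65) for miR-370-3p and 1.43 (interval 1.14 to 1.72) for miR-127-3p. The smaller value of miR-127-3p came from a lower A549 ratio (1.66) and a BEAS-2B ratio of 0.23. That BEAS-2B ratio had an interval that included 0 (-0.04 to 0.50), and it was -0.18 with total-count scaling. The interval also lay above 0 for miR-136-5p (1.65, interval 0.20 to 3.10) and miR-433-3p (4.13, interval 0.56 to 7.71), the latter resting on single-digit BEAS-2B counts. For miR-337-3p, miR-431-5p, miR-432-5p and miR-136-3p it included 0. With 1 library per group, these intervals compare libraries and not conditions.

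The untreated lines were also compared. The summed members were 2.70-fold higher in untreated A549 than in untreated BEAS-2B cells (log2 ratio 1.43, interval 1.30 to 1.57), from 1337 and 494.6 normalised counts. For miR-127-3p the log2 ratio was 2.01 (interval 1.80 to 2.23), from 749 and 185 normalised counts, and it was the 1 member that met the ND criterion and was past both criteria, beside 40.7% called higher of all that met it. Both arms of miR-493 differed less, by 0.96 (interval 0.64 to 1.30) for 5p and 0.55 (interval 0.23 to 0.88) for 3p. miR-370-3p stood at 1.26 (interval 0.84 to 1.73). Of 8 members with a mean normalised count of at least 10, 7 had an interval above 0, beside 40.7% of 386 miRNAs. The median over the members was 1.11 and over all miRNAs with a count -0.19. With total-count scaling the ratio of the sum was 0.90 and that of miR-493-3p 0.02 (interval -0.31 to 0.35). That of miR-136-3p was then 0.97 (interval -0.15 to 2.37). With this scaling and with unscaled counts, 5 of the 10 members had an interval above 0, and the matching share over all miRNAs is not given.

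Between 5 and 1 ng/mL in A549 cells, the sum was higher by 0.27 on the log2 scale (interval 0.21 to 0.34). Here miR-493-5p was the 1 of 4 members meeting the ND criterion that was past the criteria (0.61, interval 0.44 to 0.78), beside 8.46% called higher, and 3 of 10 members had an interval above 0, beside 20.4%. The others of the 3 were miR-493-3p (0.39, interval 0.24 to 0.54) and miR-127-3p (0.23, interval 0.14 to 0.32), while miR-370-3p stood at 0.01 (interval -0.20 to 0.21). In BEAS-2B cells no member met the ND criterion, so none could be past the criteria between these doses. Of all miRNAs that met it, 6.61% were called. Of the 6 members with a mean normalised count of at least 10, only miR-493-5p had an interval below 0 (-0.62, interval -1.06 to -0.21), beside 12.0% of 366 miRNAs. The dose difference of miR-493-5p pointed in opposite directions in the lines, though 1 of 6 members in BEAS-2B cells is close to the share over all miRNAs. Total-count scaling raised the A549 sum to 0.57, and miR-493-5p in A549 stayed above 0 in all 5 other scalings. Its BEAS-2B interval lay below 0 in each scaling but the unscaled counts.

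Shares within a library do not depend on scaling, and they show how the members moved relative to each other. miR-127-3p made up 56.0%, 52.9% and 51.2% of the members' counts in A549 cells at 0, 1 and 5 ng/mL, and 37.5%, 39.2% and 45.4% in BEAS-2B cells. The arms of miR-493 together made up 27.4%, 30.2% and 35.1% in A549 cells and 43.7%, 44.2% and 37.2% in BEAS-2B cells. In untreated A549 cells miR-127-3p thus had a larger share than the summed miR-493 arms. In untreated BEAS-2B cells the summed miR-493 arms had the larger share, with overlapping intervals (39.8 to 47.6 against 33.7 to 41.4). Neither arm alone reached miR-127-3p there. At 5 ng/mL the makeup of the lines lay closer together than in the controls.

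Set against the other 9 members at 5 ng/mL in A549 cells, miR-493-3p was higher by 0.63 on the log2 scale (interval 0.36 to 0.89), while miR-127-3p stood at -0.28 (interval -0.46 to -0.10) and miR-431-5p at -1.58 (interval -2.47 to -0.69). The other 7 intervals included 0. At 1 ng/mL miR-431-5p stood at -1.15 (interval -1.99 to -0.31), so it lay below the other 9 together at each dose. This rests on 20, 27 and 21 counts in single libraries that share a control. Among its neighbours within 3777 bp, the 5 ng/mL interval of miR-431-5p against the control was apart only from that of miR-127-3p. It overlapped those of miR-433-3p, miR-432-5p and both miR-136 arms. In BEAS-2B cells at 5 ng/mL, miR-127-3p was the 1 member whose interval excluded 0 (0.47, interval 0.13 to 0.82). In the untreated comparison miR-127-3p stood at 1.09 and miR-493-3p at -1.07 against the other 9.

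Products of the hairpin arms were read next. Over all libraries, miR-127 gave 5426 counts from its 3p arm and 25 from its 5p arm (99.5% 3p), and miR-370 gave 1066 and 5 (99.5% 3p). miR-431 was mostly 5p (78 and 6 counts), miR-432 gave 171 counts from 5p and 0 from 3p, which allows a 3p share of up to 2.13% (exact 95% bound), and miR-433 gave 31 from 3p and 2 from 5p. miR-493 and miR-136 gave both arms in near equal amounts, with 53.0% and 47.5% from 3p. The 3p share of miR-493 in A549 cells was 46.6% (interval 41.3 to 52.0), 56.4% (53.5 to 59.3) and 52.5% (49.9 to 55.2) at 0, 1 and 5 ng/mL. The intervals of the control and the 1 ng/mL library did not overlap. In BEAS-2B cells the share was 53.7%, 45.8% and 53.8%, with overlapping intervals. That of miR-136 lay between 40.9% and 55.6% in all libraries and rested on 17 to 119 counts.

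Among the other arms of the run, miR-665 was the most abundant, with 13, 12 and 25 counts in A549 cells and 7, 0 and 4 in BEAS-2B cells, more in all than miR-337-3p or miR-433-3p among the members. miR-337-5p had 2, 8 and 9 counts in A549 cells and 2, 1 and 0 in BEAS-2B cells, and miR-127-5p had 4, 12 and 4 and 0, 1 and 4. miR-431-3p, miR-433-5p, miR-370-5p and miR-770-5p had at most 3 counts in any library. All arms that are not members took at most 1.61% of the run's counts.

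**Figure D4:**
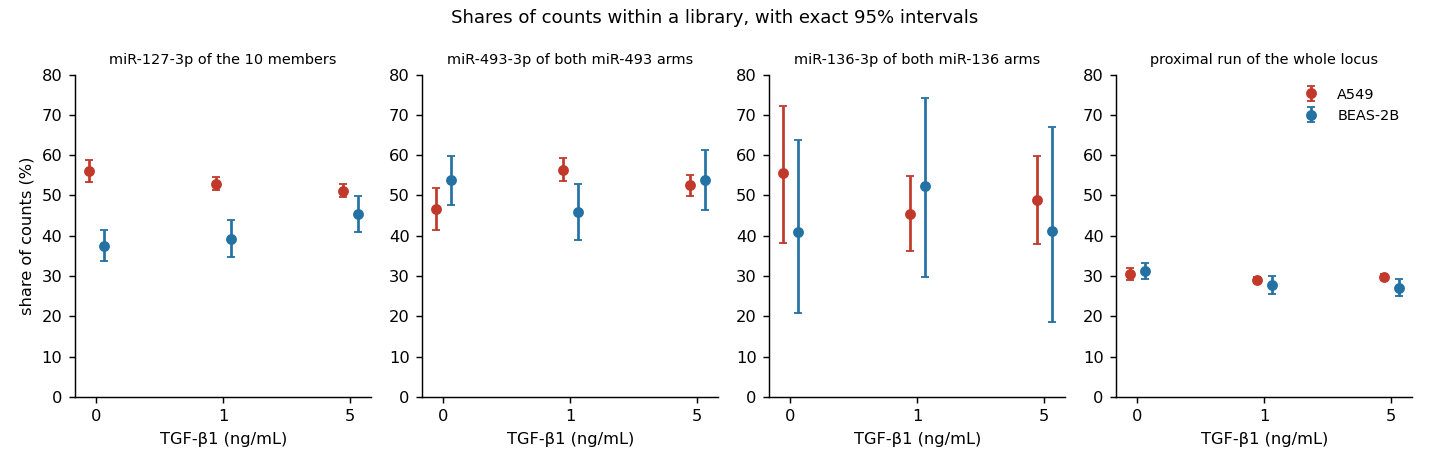
Shares of counts in percent (vertical axes) at 0, 1 and 5 ng/mL (horizontal axes) in A549 (red) and BEAS-2B (blue), with exact 95% intervals as bars, for miR-127-3p among the members, the 3p arms of miR-493 and miR-136, and the proximal run within the whole locus. The miR-127-3p share is 56.0% in untreated A549 and 37.5% in untreated BEAS-2B, and the proximal share stays between 27.1% and 31.3% in all 6 libraries.

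The members were then set beside the distal run, 74 arms from miR-379 to miR-656. In A549 cells at 5 ng/mL the summed distal run gave a log2 ratio of 1.84 (interval 1.78 to 1.90) beside 1.79 for the members, and at 1 ng/mL 1.61 beside 1.52. The members relative to the distal run stood at -0.04 (interval -0.15 to 0.07) and -0.09 (interval -0.20 to 0.02), so a difference between the runs was not detectable at this depth. The values were 0.10 and 0.09 without miR-381-3p, and 0.11 and 0.01 without miR-127-3p, all with intervals that include 0. The median over arms with a mean normalised count of at least 10 was 1.55 in the distal run and 1.56 in the members at 5 ng/mL. Proximal products were 30.5%, 29.04% and 29.7% of the locus counts in A549 cells and 31.3%, 27.7% and 27.1% in BEAS-2B cells.

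In the BEAS-2B libraries the runs differed beyond counting error when all arms were kept. The intervals of this difference overlapped those in A549 cells at each dose. The distal sum gave 0.25 (interval 0.14 to 0.35) at 5 ng/mL and 0.33 (interval 0.22 to 0.45) at 1 ng/mL, and the members relative to it stood at -0.29 (interval -0.49 to -0.09) and -0.23 (interval -0.44 to -0.03). Without miR-381-3p, the most abundant distal arm, these became -0.21 (interval -0.42 to 0.01) and -0.19 (interval -0.41 to 0.03), which include 0. Without miR-127-3p among the members they became -0.49 (interval -0.73 to -0.24) and -0.27 (interval -0.52 to -0.03). miR-381-3p itself had 367, 486 and 485.3 normalised counts in BEAS-2B cells, and 1398, 5016 and 4942 counts in A549 cells. The next distal arms by abundance, miR-654-3p and miR-409-3p, had log2 ratios of 2.08 and 1.92 at 5 ng/mL in A549 cells, and 0.14 and -0.20 in BEAS-2B cells.

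**Figure D5:**
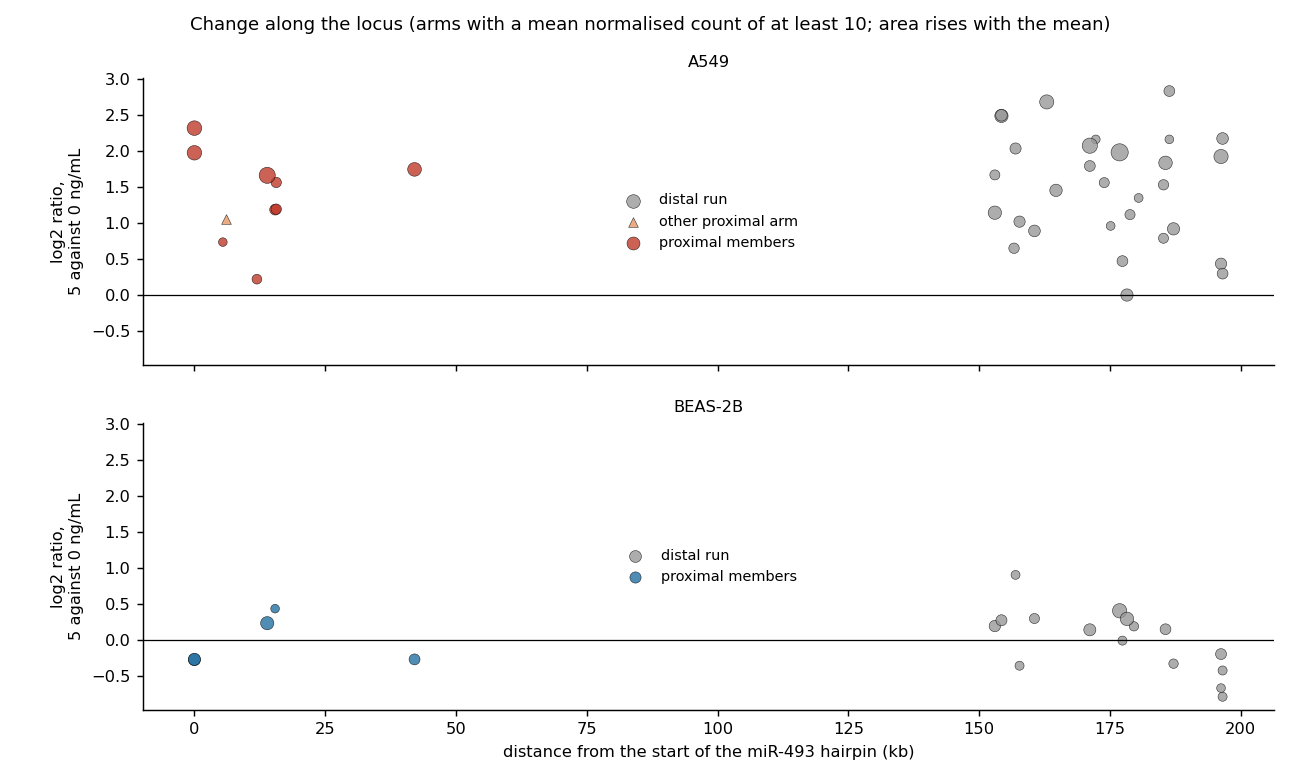
Log2 ratio of 5 against 0 ng/mL (vertical axis) against distance from the start of the miR-493 hairpin in kb (horizontal axis) for arms with a mean normalised count of at least 10, in A549 (top) and BEAS-2B (bottom), with point area rising with that mean. In A549 cells the 9 members shown run from 0.22 to 2.32 and the 30 distal arms from 0.00 to 2.83, with none below 0.

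Likeness of profile over all 6 libraries was measured as the Euclidean distance between mean-centred ND values, for miRNAs whose mean normalised count reached 50. The nearest to the summed members that is not itself part of the sum was the distal miR-134-5p (distance 0.242), followed by the distal miR-409-3p (0.438). The nearest 20 held 8 of the 11 eligible distal miRNAs and 8 of the 208 from outside the locus, and the rest were members, whose place is set by their part in the sum. The nearest from outside was miR-126-3p (1.20), an endothelial miRNA within EGFL7, which had 1003, 1280 and 1166 counts in A549 cells and 393, 230 and 197 in BEAS-2B cells. It was followed by miR-582-5p (1.28) and miR-183-5p (1.35). Their A549 log2 ratios at 5 ng/mL were 0.38, 0.53 and 0.05, smaller than those of the 4 abundant members, while their log2 ratios between untreated A549 and untreated BEAS-2B were 1.78, 2.88 and 2.39.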

How the data were processed

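Small RNA libraries were made with the NEBNext Multiplex Small RNA kit from 6 cultures, 1 per cell line and dose. The authors deposited 1 whole-number read count for each mature miRNA, with no normalisation. Bowtie2 and bedtools are named in the submitters' processing notes. The genome build, the miRNA annotation release and the handling of strand were not given in the sources used here, so reads from RTL1 and from the miRNAs opposite it could not be checked for strand. The normalisation behind the study's ND was also not given.

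Counts were scaled by TMM over all 6 libraries (edgeR 4.0.16 in R 4.3.3) to the mean effective size of 749498. Python 3.11.15, numpy 2.4.6, pandas 2.3.3, scipy 1.17.1 and matplotlib 3.10.9 were used. Ratio intervals were exact Clopper-Pearson intervals of the conditional binomial share. They leave out scaling error, the added count of 1 and biological spread, and reads without molecular identifiers are not independent molecules. Intervals for differences of ratios and relative ratios were normal approximations on the log scale. A count of 0 allows up to 3 counts, or from 3.33 to 4.74 CPM (counts per library total, scaled as usual). The procedure was tested on simulated data, drawn from a single pooled profile with counting error only and no difference between the lines. That run cannot show whether the intervals hold for the scaling or the spread of these libraries. No test and no p-value was computed.

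Members and lists were chosen with earlier results of these data known. Named were the members, the other arms of the run, the 3 most abundant distal arms and the 3 nearest profiles from outside the locus. miR-134-5p, the let-7 arms and the other seed partners were named after their values were seen. Mature sequences came from RefSeq (GRCh38.p14), and gene models from GENCODE 29 (GRCh38), matched by name for all 10 members. Alternatives were DESeq2 1.42.0 size factors, total count with and without miR-21-5p, TMM within each line, unscaled counts, other pseudocounts and other criteria.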

Additional observations from a re-analysis of the deposited data

Results flagged for a closer look

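Some miRNAs stood higher than the control in both treated A549 libraries and lower in both treated BEAS-2B libraries. Where the mean normalised count reached 10, this held for 2 of 8 members, 10 of 27 distal arms and 47 of 397 miRNAs, and it also held for the scarcer miR-337-3p and miR-433-3p. The difference of the log2 ratios at 5 ng/mL, A549 minus BEAS-2B, is given here with the added count of 1. It was 2.59 for miR-493-3p, 2.02 for miR-370-3p, 0.94 for miR-337-3p and 3.12 for miR-433-3p. Among the miRNAs from outside the locus it was 1.02 for miR-126-3p and 0.20 for miR-183-5p. Without the added count it was 4.13 for miR-433-3p and 1.05 for miR-337-3p. The difference was not tested, since each group had 1 library. For miR-433-3p the BEAS-2B side rests on 6, 0 and 1 counts and for miR-337-3p on 9, 2 and 6. For miR-183-5p, miR-337-3p and miR-433-3p the intervals of the ratios in both lines included no difference. The BEAS-2B intervals of miR-493-3p and miR-370-3p also included no difference at each dose, so their lower BEAS-2B values are within counting error.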

How the results depend on the processing

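No paired analysis was possible because each group had 1 library and the labels carry no replicate numbers, and for the same reason no library could be left out within a group. A model with the lines as blocks was left out. For the summed members in A549 cells, the log2 ratio at 5 ng/mL came to 1.70 with DESeq2 size factors, 1.95 with total-count scaling and 1.63 unscaled, and at 1 ng/mL it was 1.43 with DESeq2 and 1.38 with total count. In BEAS-2B cells the sum was -0.46 with total count, 0.14 with total count without miR-21-5p and -0.39 unscaled at 5 ng/mL, and -0.32 with total count and -0.49 unscaled at 1 ng/mL. Between the untreated lines it was 0.90 with total count and 1.00 unscaled. In A549 cells the number of members called at 5 ng/mL was 9 of 10 with no ND criterion, all higher (beside 41.8% of all miRNAs), and 1 of 1 eligible with ND required in both libraries (18.4%). At 1 ng/mL they were 2 of 2 with ND of at least 9 (27.1%), 8 of 10 with no ND criterion (39.2%) and 1 of 1 with ND in both libraries (20.8%), all higher. In BEAS-2B cells, dropping the ND criterion gave 1 of 10 at 5 ng/mL, lower (beside 32.5% called lower), and 5 of 10 at 1 ng/mL, 2 higher and 3 lower (beside 27.0% and 36.2%). A further 65 main values stayed within their interval or within 1.5 times the count, as did 320 of 340 single-member values. Single members changed sign under a scaling in 14 cases, 0 in treated A549 against control, 5 and 6 in BEAS-2B at 5 and 1 ng/mL, and 3 between the untreated lines. The comparisons with the distal run that leave out miR-381-3p or miR-127-3p were chosen after seeing the data. Depth limits miR-337-3p, miR-431-5p and miR-433-3p most, with at most 27 counts in any library.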
